A study of Mus musculus with 9 samples.

Results

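The 9 genes examined act in renal bicarbonate handling or belong to the Kcnk potassium channels: Kcnk1, Kcnk5, Slc4a4, Slc4a2, Slc9a3, Car2, Car4, Car12 and Car14. They are 9 of the 52636 genes in the deposited count table, and all 9 passed the filter on low counts. The set was chosen by name around Kcnk5, which was selected on its low p-value in C59S against wild type, so that comparison is given for these genes as a description with no test. In it Kcnk5 ranked 4 of 17114 tested genes by p. The next of the 9, Car14, ranked 348, Car4 ranked 1941, and the remaining 6 ranked lower.

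The study profiled RNA from whole kidney of 3 genotypes, with 3 libraries each: wild type (WT) and the knock-in alleles C59A and C59S of Nfkb1, in which the cysteine codon of the p50 DNA-binding region is replaced. Both alleles were made in C57BL/6NTac-derived embryonic stem cells, and both carry a PGK-neo selection cassette in a neighbouring intron, which WT lacks. The sample labels call C59A "activated" and C59S "inactivated", whereas the design text names the change in DNA binding in the opposite order and gives alanine for both new codons, so the genotypes are called here by allele only. Zygosity, age, sex, the number of embryonic stem cell clones and whether each library came from its own animal are not given in the sources used here, so p-values measure the spread between these libraries only.

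Most filtered bicarbonate is reclaimed in the proximal tubule. There Slc9a3, the apical sodium-proton exchanger, secretes protons, carbonic anhydrases interconvert carbon dioxide and bicarbonate on both sides of the membrane, and Slc4a4, the basolateral sodium-bicarbonate cotransporter, returns bicarbonate to the blood. Kcnk5 encodes an alkali-activated background potassium channel of the basolateral membrane, whose activity favours bicarbonate exit by keeping the cell interior negative.

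The promoters of 5 of these genes are shown because the altered protein binds DNA: Kcnk5, Car4, Car12 and Car14 are the 4 that passed the threshold in a tested comparison, and Slc9a3 holds a motif match. RefSeq promoter windows (GRCm38.p6) were matched for 8 of the 9 genes, in 10 windows of 300 bases, and searched on both strands for the kappa-B consensus, the motif bound by NF-kB dimers. It was present in 2 of the 10 windows, those of Car4 and Slc9a3, and in 2779 of the 32851 windows searched across genes (8.46%). That search left out a chromosome that holds none of the 9 genes. In Car4 the match GGGATACTCC begins 159 bases before the start site on the gene's own strand. In Slc9a3 the match GGGGCCTTCC lies on the opposite strand. On the gene's own strand it reads GGAAGGCCCC, which begins 66 bases before the start site. The windows of Kcnk5, Car12 and Car14 held no match, which says only that these letters are not in this window. The 250 bases before each start follow, 5′ to 3′ on the gene's strand, with capitals marking the match: Kcnk5 at chr14:20181783-20182032 (minus), Car4 at chr11:84957504-84957753 (plus), Slc9a3 at chr13:74121163-74121412 (plus), Car12 at chr9:66713436-66713685 (plus) and Car14 at chr3:95904686-95904935 (minus).
Kcnk5: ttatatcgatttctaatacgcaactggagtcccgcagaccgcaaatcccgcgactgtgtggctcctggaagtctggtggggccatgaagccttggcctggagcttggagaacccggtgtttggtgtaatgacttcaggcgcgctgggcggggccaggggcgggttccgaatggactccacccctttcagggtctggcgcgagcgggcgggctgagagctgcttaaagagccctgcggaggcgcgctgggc
Car4: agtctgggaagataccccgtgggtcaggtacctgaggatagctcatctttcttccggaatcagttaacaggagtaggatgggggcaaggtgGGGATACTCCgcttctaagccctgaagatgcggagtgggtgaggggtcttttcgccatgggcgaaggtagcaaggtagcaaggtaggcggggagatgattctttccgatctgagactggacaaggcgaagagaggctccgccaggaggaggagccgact
Slc9a3: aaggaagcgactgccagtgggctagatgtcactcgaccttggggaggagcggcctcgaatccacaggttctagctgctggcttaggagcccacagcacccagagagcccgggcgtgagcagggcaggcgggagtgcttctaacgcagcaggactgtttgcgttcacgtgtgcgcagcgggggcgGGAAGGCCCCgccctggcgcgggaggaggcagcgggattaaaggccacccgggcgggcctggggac
Car12: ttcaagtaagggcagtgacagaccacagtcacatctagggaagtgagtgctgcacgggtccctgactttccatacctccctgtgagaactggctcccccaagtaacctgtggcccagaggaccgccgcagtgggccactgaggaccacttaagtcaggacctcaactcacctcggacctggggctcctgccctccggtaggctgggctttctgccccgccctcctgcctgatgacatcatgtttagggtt
Car14: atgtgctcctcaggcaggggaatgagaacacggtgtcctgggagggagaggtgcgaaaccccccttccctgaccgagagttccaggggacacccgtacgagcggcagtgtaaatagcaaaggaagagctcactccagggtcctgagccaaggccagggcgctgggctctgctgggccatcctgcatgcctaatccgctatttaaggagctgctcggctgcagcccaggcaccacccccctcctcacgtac

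Library totals ran from 16367403 to 25787659 counts, and each of the 9 genes had between 366 and 9321 counts in every library. Levels are CPM, or counts scaled to a common library total of 1000000 after correction by the trimmed mean of M-values (TMM). Mitochondrial transcripts took 16.4% to 40.5% of the counts, the most in C59S replicate 3. The C59A libraries also stood apart in sex-linked transcripts: Ddx3y, a Y-linked helicase gene, was at 43.2 to 46.9 CPM in them and at no more than 0.81 CPM elsewhere. Xist, which is transcribed from the inactive X, was at no more than 0.725 CPM in C59A and at 816 to 1276 CPM in WT and C59S. In each comparison that involves C59A, genotype and this sex-linked difference cannot be told apart.

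Per kilobase of gene length, Car2, the abundant cytosolic carbonic anhydrase, led with a mean of 142 CPM per kilobase over the 9 libraries, above 98.1% of tested genes. Its lowest library (103) was above the highest of every other gene of the set. Car4 (49.2), Kcnk1 (31.4), Car12 (23.0), Slc4a4 (21.4), Slc9a3 (19.4), Kcnk5 (18.7) and Car14 (14.5 CPM per kilobase) followed, and the library ranges of neighbours in that order overlapped. Slc4a2 was the lowest at 7.66 CPM per kilobase, and its highest library (9.86) overlapped the lowest of Car14 (8.69).

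**Figure D1:**
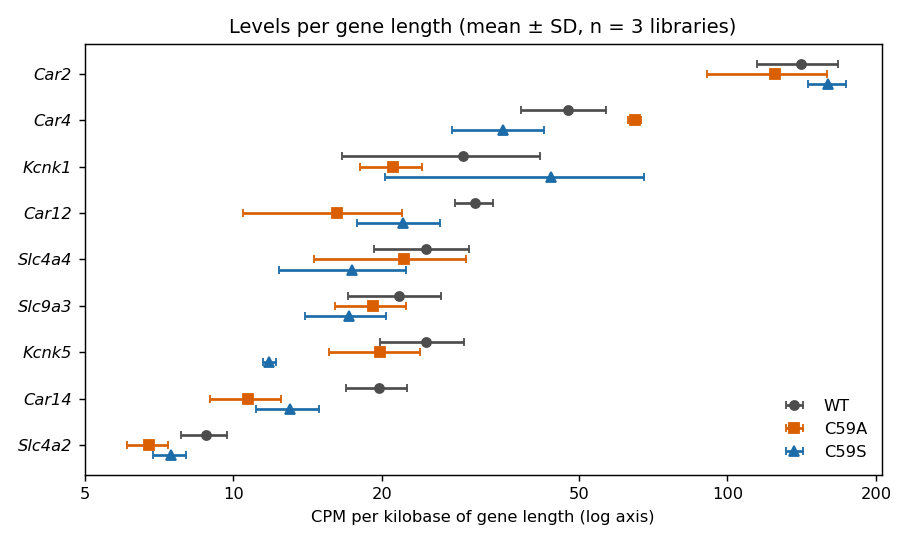
Levels of the 9 genes per kilobase of gene length (log axis), as the mean ± SD of 3 libraries for each genotype. Car2 sits to the right of all others at a mean of 142 CPM per kilobase, and Kcnk5 in C59S and Car4 in C59A have the tightest bars.

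Kcnk5 lies at chr14:20140057-20181809 on the minus strand (GRCm38, as are all positions here). Its level was 71.5, 102 and 77.1 CPM in the WT libraries, 69.0, 52.4 and 80.4 CPM in C59A, and 41.2, 40.7 and 38.9 CPM in C59S. The 3 C59S libraries were below all others and nearly equal, with a mean of 40.3 ± 1.23 CPM (SD, n = 3) beside 83.5 ± 16.3 CPM in WT and 67.3 ± 14.1 CPM in C59A. C59S was 2.07-fold below WT, a log2 difference of -1.05, which is the value that led to the choice of the gene. It ran from -1.24 to -0.88 over 25 alternative settings, which reuse the libraries of that choice and add no support. Between C59A and WT the libraries overlapped, and the log2 difference was -0.31 ± 0.17 (SE, 95% interval -0.68 to 0.06; edgeR adjusted p = 0.324). C59A was 1.67-fold above C59S without overlap (log2 difference 0.74 ± 0.17, interval 0.37 to 1.11; edgeR adjusted p = 0.0298). That comparison uses the C59S libraries on which Kcnk5 was selected and is no independent support for their low level. The call was lost in 11 of 24 alternatives, among them the fits without C59A replicate 1 (adjusted p = 0.0964), C59A replicate 3 (0.113) and each of C59S replicates 1, 2 and 3 (0.0604, 0.0837 and 0.112).

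Kcnk1 (chr8:125995170-126030685, plus strand) encodes the weakly rectifying channel after which the K2P family of background potassium channels was founded. It was at 90.1, 70.6 and 34.7 CPM in WT, at 51, 51.1 and 39.2 CPM in C59A and at 159.5, 69.8 and 65.5 CPM in C59S. The WT libraries spread 2.60-fold, and C59S replicate 1 was the highest of the 9. C59A lay below C59S in every library (log2 difference -1.06 ± 0.42), and below WT on average with overlap (-0.47 ± 0.42). Neither difference passed edgeR's test (adjusted p = 0.183 and 0.585); DESeq2 called the first at an adjusted p of 0.0375. Without C59S replicate 1 the first difference was -0.53. C59S against WT was 0.60 on the log2 scale with overlapping libraries, which is opposite in sign to Kcnk5. Without C59S replicate 1 that value was 0.06.

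Within each library, Kcnk5 read relative to Kcnk1 per base of gene length was 0.521, 0.948 and 1.46 in the WT libraries, 0.889, 0.673 and 1.35 in those of C59A, and 0.170, 0.383 and 0.390 in C59S. The numerator is the gene selected for its low C59S level, so the low C59S ratios are a description that adds no support.

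Slc9a3 (chr13:74121457-74169442, plus strand) measured 133, 135 and 90.0 CPM in WT, 99.4, 125 and 92.4 CPM in C59A and 114, 81.6 and 87.5 CPM in C59S. The genotypes overlapped at this gene, the other with a kappa-B match in its promoter. The log2 difference was -0.17 (interval -0.59 to 0.24; edgeR adjusted p = 0.657) for C59A against WT and 0.16 (interval -0.25 to 0.58; edgeR adjusted p = 0.666) for C59A against C59S. C59S against WT was -0.34.

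Slc4a4 (chr5:88886818-89239653, plus strand) measured 215, 329 and 253 CPM in WT, 251, 152 and 314 CPM in C59A and 139, 246 and 179 CPM in C59S. Each genotype held a library more than 1.5-fold above its lowest, and all 3 overlapped. C59A against WT gave a log2 difference of -0.15 (interval -0.78 to 0.47; edgeR adjusted p = 0.816), whose sign turned without WT replicate 2 (0.03) or without C59A replicate 2 (0.09). C59A against C59S gave 0.35 (interval -0.28 to 0.97; edgeR adjusted p = 0.508), and C59S against WT was -0.50.

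Slc4a2 (chr5:24423837-24440950, plus strand), a chloride-bicarbonate exchanger found in many tissues, measured 82.1, 68.2 and 69.1 CPM in WT, 56.7, 61.0 and 50.5 CPM in C59A and 65.5, 56.6 and 64.1 CPM in C59S. Both alleles lay below WT in every library. The C59A difference was -0.38 ± 0.12 on the log2 scale and missed the threshold (edgeR adjusted p = 0.0980). Scaling by library totals, under which the median over all tested genes was -0.26, gave -0.62 and an adjusted p of 0.0474. C59A against C59S was -0.15 (edgeR adjusted p = 0.521), and C59S against WT was -0.24. The gene overlaps Fastk on the opposite strand, and the strand setting of the counting is not given in the sources used here; Fastk had means of 203, 196 and 194 CPM in WT, C59A and C59S.

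Car2 (chr3:14886273-14900770, plus strand), which supplies bicarbonate and protons inside the cell, measured 288, 323 and 411 CPM in WT, 250, 260 and 397 CPM in C59A and 348, 411 and 400 CPM in C59S. The genotypes overlapped, and neither C59A difference passed edgeR's test (log2 -0.17 against WT, interval -0.61 to 0.27, adjusted p = 0.683; -0.35 against C59S, interval -0.79 to 0.09, adjusted p = 0.329). C59S against WT was 0.18 and was -0.02 with library totals in place of TMM scaling.

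Car4 (chr11:84957786-84966044, plus strand) encodes the lipid-anchored enzyme of the proximal tubule surface. It measured 83.6, 82.1 and 115 CPM in WT, 130.5, 123 and 129 CPM in C59A and 59.6, 85.9 and 61.7 CPM in C59S. Its promoter is 1 of the 2 with a kappa-B match. All C59A libraries were above all others. C59A was 1.85-fold above C59S (log2 difference 0.89 ± 0.17, interval 0.51 to 1.26; edgeR adjusted p = 0.0130), a call that was lost without C59S replicate 3 (0.0717) and with unfiltered FPKM values (0.0637). Against WT the log2 difference was 0.45 ± 0.17 and missed the threshold (edgeR adjusted p = 0.154). C59S against WT was -0.44, with overlapping libraries.

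Car14 (chr3:95897768-95904691, minus strand) encodes a transmembrane carbonic anhydrase with its catalytic domain outside the cell. It measured 43.7, 57.6 and 48.9 CPM in WT, 22.1, 29.9 and 29.9 CPM in C59A and 28.2, 37.8 and 33.1 CPM in C59S. Every library of either allele was below every WT library. Car14 fell 1.83-fold in C59A against WT (log2 difference -0.87 ± 0.16, interval -1.23 to -0.52; edgeR adjusted p = 0.00894), and the call was kept in 23 of 24 alternatives. C59A and C59S overlapped (log2 -0.27; edgeR adjusted p = 0.344), and C59S against WT was -0.60. Aph1a overlaps Car14 on the opposite strand and had means of 88.8, 85.8 and 83.3 CPM in WT, C59A and C59S.

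Car12 (chr9:66713686-66766845, plus strand), another transmembrane enzyme facing outward, measured 210, 242 and 249 CPM in WT, 127, 77.7 and 164 CPM in C59A and 132, 194 and 175 CPM in C59S. Again every library of either allele was below every WT library. Car12 fell 1.90-fold in C59A against WT (log2 difference -0.93 ± 0.24, interval -1.46 to -0.40), just inside the threshold (edgeR adjusted p = 0.0487). That call was lost in 16 of 24 alternatives, including each fit without 1 of the 3 WT libraries (0.0994 to 0.108), without C59A replicate 1 or 2 (0.135 and 0.0782) and without C59S replicate 2 or 3 (0.0624 and 0.0744); over all 24 alternatives the adjusted p ran from 0.00525 to 0.159. C59A against C59S was -0.44 (edgeR adjusted p = 0.306), and C59S against WT was -0.49. In whole kidney, fewer cells of a type and less RNA per cell cannot be told apart.

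**Figure D2:**
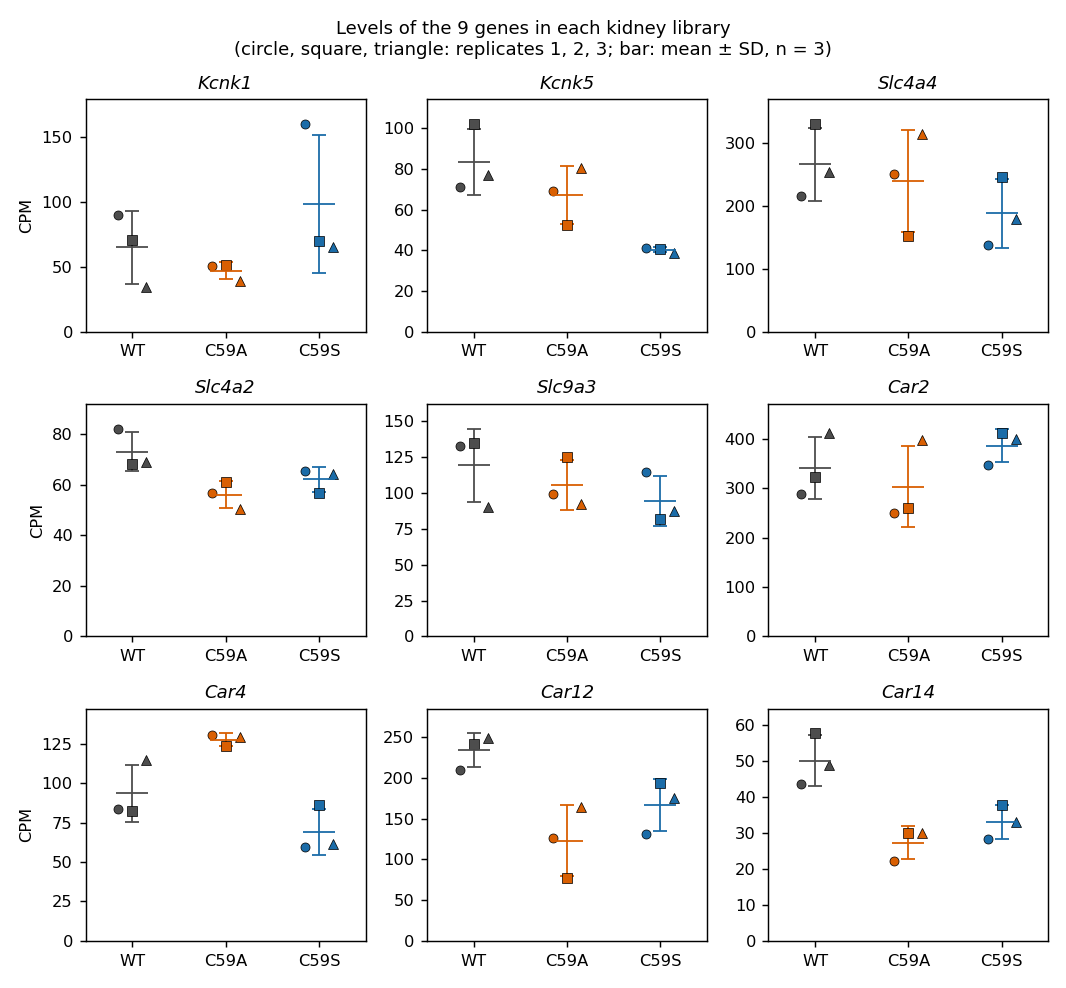
Level of each gene in CPM (linear axis from 0) in the 9 libraries, with symbols for replicates and bars for the mean ± SD of 3 libraries. The C59S values of Kcnk5 lie together at 38.9 to 41.2 CPM, the C59A values of Car4 lie above all others, and the WT values of Car12 and Car14 lie above both alleles.

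Against WT, 0 of the 9 genes were called higher in C59A and 2 lower (Car12 and Car14), where 5.7% of the 17114 tested genes were called, 3.24% higher and 2.46% lower. Of the 9 log2 differences, 8 were negative, all but Car4, with a median of -0.31 beside -0.02 over all tested genes. Over all tested genes 47.6% were positive. In C59A against C59S, 2 were called higher (Car4 and Kcnk5) and 0 lower, where 5.91% of tested genes were called, 3.35% higher and 2.56% lower. Kcnk5 was selected on those C59S libraries, so its place in this count adds no support. Of the 9 differences 4 were positive, beside 49% of all tested genes, and the median was -0.15 beside -0.01 over all genes. In C59S against WT, 7 of the 9 were negative, all but Kcnk1 and Car2, with a median of -0.44 beside 0.01, where 51.1% of all tested genes were positive. In that last comparison edgeR, by its quasi-likelihood test and Benjamini-Hochberg adjustment, called 0% of all genes, with 3093 at an unadjusted p under 0.05; DESeq2 called 670, and a fit of the WT and C59S libraries alone that paired equal replicate numbers called 638. The paired fit was not among the planned settings, and its pairing is arbitrary because the labels give none. Nothing is read from these counts for the 9 genes. The 3 comparisons share libraries pairwise, so their values are not independent.

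**Figure D3:**
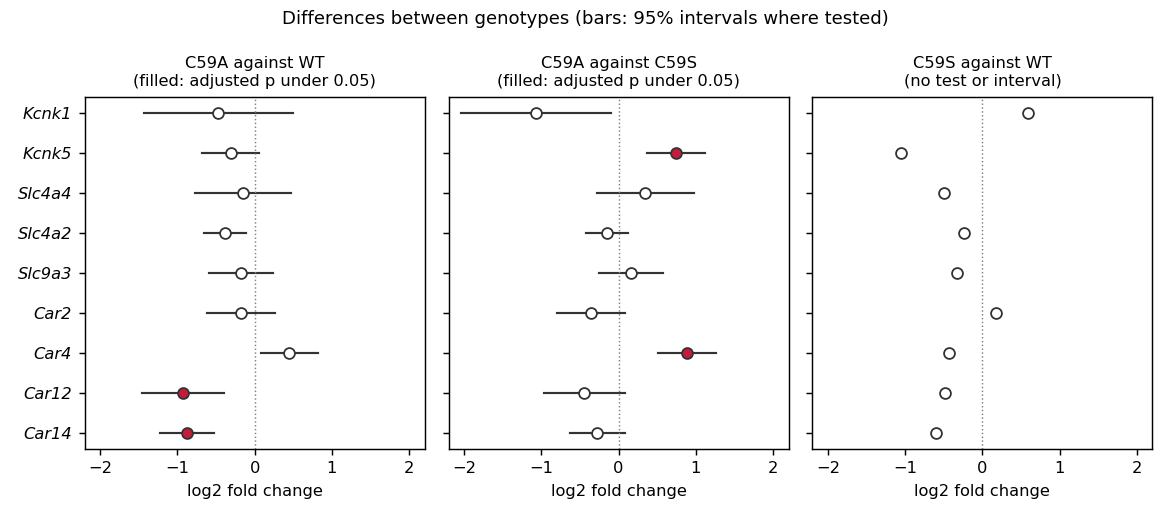
Log2 fold changes of the 9 genes in the 3 comparisons, with 95% intervals in the 2 that were tested; filled points have an adjusted p under 0.05. Car12 and Car14 are filled on the negative side against WT, Car4 and Kcnk5 on the positive side against C59S, and the C59S against WT values are points only. The filled point of Kcnk5 uses the C59S libraries on which the gene was selected.

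The wider families were read from lists of related genes, whose counts stand beside 5.7% of all tested genes called in C59A against WT and 5.91% in C59A against C59S. Among 12 other K2P channel genes, 5 passed the filter and 0 were called in either tested comparison. The low-level Kcnk3, an acid-sensitive channel, was at 2.39, 10.4 and 9.92 CPM in the C59S libraries, beside means of 2.98 CPM in WT and 2.77 CPM in C59A (C59A against C59S -1.44 ± 0.51; edgeR adjusted p = 0.129). Its 2 high C59S libraries are those with the high adipocyte marker sums given with Car3, whose part in this value was not tested. Of 8 other SLC4 transporter genes, 0 were higher and 1 was lower in C59A against WT. It was Slc4a9, an anion exchanger of intercalated cells, at 405, 302 and 456 CPM in WT, 191, 167 and 215 CPM in C59A and 320, 271 and 270 CPM in C59S. Its log2 difference of -1.02 ± 0.18 (edgeR adjusted p = 0.00612) was called in all 24 alternatives. None of the 8 was called between C59A and C59S. Of 8 other SLC9 exchanger genes 0 were called in either comparison.

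Of 12 other carbonic anhydrase genes, 8 were tested, and 1 was called higher in each comparison. Car13, a cytosolic enzyme, was at 1.69, 1.56 and 1.33 CPM in WT and at 1.87, 13.4 and 8.49 CPM in C59A. Replicate 1 of C59A was thus near WT, and the log2 difference of 2.37 ± 0.57 (edgeR adjusted p = 0.0397) was lost in 16 of 24 alternatives, including 8 of the 9 fits that left out a library (0.0536 to 0.128). Car9, a transmembrane enzyme known from hypoxic cells, was at 7.85, 12.1 and 5.72 CPM in C59A and at 2.46, 4.87 and 3.64 CPM in C59S. Its log2 difference of 1.23 ± 0.32 (edgeR adjusted p = 0.0444) was lost in 13 of 24 alternatives, 6 of them fits that left out a library (0.0513 to 0.141). Car3, a cytosolic enzyme abundant in fat and muscle, was at 4.92, 207 and 243 CPM in C59S and at 34.7, 5.27 and 82.8 CPM in C59A, but at 5.56 to 10.5 CPM in WT. The summed adipocyte markers were at 3.17, 273 and 596 CPM in the same C59S libraries and at 43.2, 1.13 and 126 CPM in C59A; their part in the Car3 values was not tested.

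Of 14 partners and regulators of proximal bicarbonate transport, 0 were called in either comparison. Chp1, a calcineurin-like cofactor of SLC9 exchangers, was at 83.0, 83.8 and 83.6 CPM in WT and at 110, 100.1 and 134 CPM in C59A, with no overlap (log2 0.46 ± 0.13; edgeR adjusted p = 0.0641). Agtr1a, the angiotensin II receptor gene, was at 29.0, 24.3 and 33.5 CPM in C59A and at 43.1, 55.8 and 40.9 CPM in C59S, again with no overlap (log2 -0.69 ± 0.18; edgeR adjusted p = 0.0510). Of 6 basolateral pump and inward rectifier genes, 1 was called: Kcnj15, an inward rectifier of the proximal tubule, was higher in C59A, at 514, 433 and 627 CPM, than in C59S, at 196, 324 and 240 CPM. The log2 difference was 1.05 ± 0.22 (edgeR adjusted p = 0.0176), lost without C59A replicate 1 or 3, without C59S replicate 1 or 3 (0.0517 to 0.0851 over these 4 fits) and with unfiltered FPKM values (0.0816). Of 13 vacuolar proton pump subunit genes, 1 was called lower in C59A against WT and 0 in C59A against C59S. It was Atp6v1b1, the subunit known from intercalated cells, at 174, 172 and 227 CPM in WT and 86.3, 85.9 and 119 CPM in C59A (log2 -0.98 ± 0.17; edgeR adjusted p = 0.00634, called in all 24 alternatives).

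The lists are described further by their median log2 differences in C59A against WT and against C59S, beside -0.02 and -0.01 over all tested genes. These medians were -0.18 and -0.75 for the other K2P channels, -0.34 and -0.35 for the other SLC4 transporters, and -0.17 and -0.11 for the other SLC9 exchangers. They were 0.165 and -0.56 for the other carbonic anhydrases, -0.05 and 0.006 for the partners and regulators, -0.003 and 0.14 for the pump and rectifier genes, and -0.004 and 0.16 for the proton pump subunits. No list was tested as a whole.

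Summed markers of several kidney cell types differed between genotypes. None of the 8 proximal tubule markers was at 0 in any library. Their summed level was 9289 to 10210 CPM in WT, 5575 to 8421 CPM in C59A and 5171 to 7009 CPM in C59S, so both alleles were below WT in every library. Without Slc34a1, the phosphate transporter gene that makes up most of this sum, WT (2626 to 3559 CPM) overlapped C59A (1943 to 3313 CPM) and remained above C59S (2009 to 2460 CPM). Single proximal markers differed in direction in C59A against WT: Slc5a2, the glucose transporter gene of the early segments, fell (log2 -1.44; edgeR adjusted p = 0.00412), and Slc22a6, an organic anion transporter gene, rose (0.91; edgeR adjusted p = 0.0312). Slc22a6 was also higher in C59A than in C59S (1.21, edgeR adjusted p = 0.00979), the only 1 of the 8 markers called in that comparison. Of their 8 log2 differences there, 5 were positive and 3 negative, with a median of 0.16. The 5 intercalated cell markers summed to 198 to 257 CPM in C59A, below WT (274 to 462 CPM) and C59S (327 to 370 CPM), with Foxi1 (-1.06; edgeR adjusted p = 0.00713) and Slc26a4 (-0.89; edgeR adjusted p = 0.0112) lower in C59A than in WT. The other 3 did not pass edgeR's test: Atp6v1g3 (-0.64, adjusted p = 0.239), Aqp6 (-0.04, adjusted p = 0.950) and Slc4a1 (0.15, adjusted p = 0.780). Slc4a9 and Atp6v1b1, both known from intercalated cells, were called lower in the same comparison. The 3 distal convoluted tubule markers summed to 2108 to 3391 CPM in WT, 842 to 1357 CPM in C59A and 1351 to 1510 CPM in C59S, most of it from Slc12a3, the thiazide-sensitive cotransporter gene. Pvalb, another of the 3, had means of 68.7 CPM in WT, 26.6 CPM in C59A and 68.8 CPM in C59S, and Trpm6 passed edgeR's test in neither C59A comparison. The 4 endothelial markers summed to 337 to 518 CPM in C59S, above C59A (214 to 242 CPM) and WT (134 to 306 CPM). The 4 principal cell markers summed to 413 to 851 CPM in C59A, above every WT library (259 to 374 CPM), and to 354 to 675 CPM in C59S. Most of this sum came from Aqp2, with means of 478 CPM in C59A and 220 CPM in WT. Aqp3, Avpr2 and Scnn1g each overlapped between C59A and WT. The means of Aqp3 and Avpr2 were higher in C59A, and that of Scnn1g was lower (26.7 CPM beside 33.5 CPM in WT). None of the 4 passed edgeR's test in C59A against WT. The 4 podocyte markers summed to 193 to 325 CPM in C59A, below every C59S library (367 to 594 CPM), and to 283 to 555 CPM in WT. The thick ascending limb, leukocyte and erythroid sums overlapped between all genotypes. The part of these shifts in the values of the 9 genes was not tested.

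**Figure D4:**
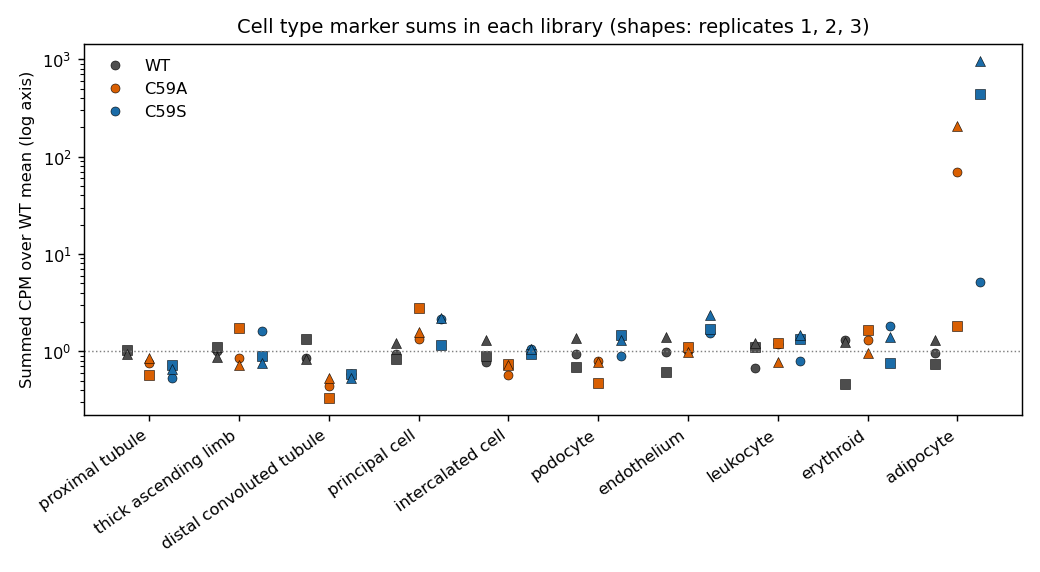
Summed CPM of each marker list in each library, divided by the WT mean of that list (log axis), with colours for genotypes and symbols for replicates. Proximal tubule sums of both alleles lie below the WT libraries, intercalated cell sums are lowest in C59A, and adipocyte sums spread widest, from 0.453 CPM in WT to 596 CPM in C59S.

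Across the 9 libraries, pairs of the 9 genes were described by the correlation of log2 CPM, which genotype, depth and cell makeup all enter. The highest pairs were Car12 with Car14 (Pearson r = 0.77) and Kcnk5 with Slc4a4 (0.75), and the lowest was Kcnk1 with Car4 (-0.80), each over n = 9 libraries. Among 13416 protein-coding genes, those most like Kcnk5 were Setdb2 (r = 0.98), Mgrn1 (0.95), Nepro (0.94), Nubpl (0.94) and Slc25a51 (0.93). Their Spearman correlations ran from 0.77 (Slc25a51) to 0.97 (Nubpl). Picked as the highest of 13416 values over 9 libraries, for a gene selected by its C59S level, these correlations carry no test. Setdb2, a histone methyltransferase gene, had means of 5.41, 4.74 and 3.17 CPM in WT, C59A and C59S, and Slc25a51, a mitochondrial carrier gene, had means of 167, 161 and 131 CPM. Among the genes most like Slc4a4, also picked as the highest values and not tested, were Isoc2a (r = 0.98), Dock4 (0.98), Aoah (0.97) and Aldh7a1 (0.97). Aldh7a1, an aldehyde dehydrogenase gene, had means of 259, 238 and 184 CPM in WT, C59A and C59S.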

How the data were processed

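RNA was measured in 9 mouse kidney libraries. Per the submitters' processing notes, the authors used CASAVA 1.8, fastp, HISAT2 2.0.5, featureCounts 1.5.0-p3 and DESeq2 1.20.0 with GRCm38; strand setting, multi-mapping and annotation release are not given in the sources used here. The deposited count table holds whole reads per gene. The deposited FPKM table equals counts over length and a constant per library, within 1% for all values of at least 10 counts. The main test was edgeR 4.0.16 (R 4.3.3; quasi-likelihood, TMM factors, low-count filter, all 9 libraries, Benjamini-Hochberg over 17114 genes, threshold 0.05), tested on simulated data. DESeq2 1.42.0 and limma 3.58.1 served as alternatives. The latter was run on counts (voom with quality weights), on log2(FPKM + 1) with and without a filter on low values, and on log2(FPKM + 0.1). The voom fit gave the 1768 calls in C59A against C59S. A count of 3 equals 0.112 to 0.202 CPM. Deviations from the genotype means correlated at 0.318, 0.195 and 0.256 between equal replicate numbers of WT and C59S. Unequal numbers of these genotypes gave -0.25 to 0.009, and equal numbers with C59A gave -0.288 to 0.05. Unequal numbers elsewhere reached similar values, as C59A replicate 2 with C59S replicate 1 (0.294). The labels give no pairing, and these values do not establish one.

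The 9 genes and all lists were chosen with earlier results of these data known. Named besides the 9 were genes of each list with the smallest p in either C59A comparison, and the 5 most correlated with Kcnk5 or Slc4a4; Car3, Fastk and Aph1a were added after their values were seen. A few of the genes named by this rule are not reported here.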

Additional observations from a re-analysis of the deposited data

How the results depend on the processing

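Of the 9 genes, 2 were called in C59A against WT. The count was 1 with DESeq2's size factors (RLE) in edgeR, with no filter on low counts, with log2(FPKM + 1), with log2(FPKM + 0.1), with only the 2 genotypes compared, with the replicate block, with mitochondrial genes left out and with the mitochondrial share as a covariate (added after seeing the data); it was 0 with unfiltered log2(FPKM + 1), 3 with library totals alone, which added Slc4a2, and 1 to 2 when each library was left out in turn. In C59A against C59S, where 2 were called, the count was 1 with library totals alone, log2(FPKM + 1), log2(FPKM + 0.1), the replicate block and the mitochondrial covariate, 0 with unfiltered log2(FPKM + 1), 3 with DESeq2, which added Kcnk1, and 0 to 2 when each library was left out, with 0 without C59S replicate 3. Fewer samples or more genes tested apply to some of these settings; otherwise the cause was not tested. The replicate block changed the calls of Car12 (0.0616), Kcnk5 (0.0601) and Car13 (0.0571). The difference of Slc4a4 between C59A and WT ran from -0.397 to 0.089 over the left-out libraries. Over all genes, the calls ran from 434 to 1622 in C59A against WT, from 318 to 1768 in C59A against C59S and from 0 to 737 in C59S against WT (737 without WT replicate 3). Library totals alone moved the share of higher among called genes in C59A against WT from 56.8% to 20%. Every one of the 9 genes had at least 366 counts in each library; how far depth limits these comparisons was not tested.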

Other observations

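Within a library, where scaling between libraries cancels, the ratio of Car4 to Car14 per base of gene length was 2.47, 1.84 and 3.03 in the WT libraries, 7.64, 5.34 and 5.58 in those of C59A, and 2.73, 2.94 and 2.41 in C59S. Every C59A library was above every other library. The pair was picked after its values were seen, so the ratio carries no test, and it shows unequal change of the pair without saying which gene moved.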
